A study of Mus musculus with 8 samples.

Results

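The loss of the transcriptional coactivator OBF-1 was examined in pre-BII cells that already lacked Aiolos, by setting 2 arrays of double-mutant (Aiolos-/-/OBF-1-/-) cells against 2 arrays of Aiolos single-mutant (Aiolos-/-) cells. These are 4 of the 8 MOE430A GeneChips of the series, and the other 4, from OBF-1 single-mutant (OBF-1-/-) and wild type cells, served to show what the same deletion does when Aiolos is present. Of 22626 probe sets tested, 9603 had a mean intensity of 100 or more in double-mutant or Aiolos single-mutant cells and were described, and they stand for 6135 of 12383 measured genes. Of these probe sets, 376 reached 100 only in double-mutant and 285 only in Aiolos single-mutant cells. At the limit, Zdhhc6 was just inside with means of 98.9 in double-mutant and 100.01 in Aiolos single-mutant cells, and Tgm3 was just outside with 96.5 and 99.9993.

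The labels give all mice as Bl6 and 7 weeks old. Per the methods, pre-BII cells were sorted from bone marrow as B220+ CD25+ cells, and each array holds RNA of an independent pool of 8 mice, with 2 pools for each genotype. Neither step is in the labels, which give bone marrow as the source and, for the mutants, a single mouse. The methods were followed. Both deletions are germline deletions, so every cell of the mice lacks the protein, and double-mutant and Aiolos single-mutant cells share the lack of Aiolos.

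Pre-BII cells have a functional immunoglobulin heavy chain and go on to rearrange their light chain genes. Before a light chain is made, the heavy chain pairs with a surrogate light chain built of λ5 (Igll1) and VpreB (Vpreb1 and Vpreb2) to form the pre-B cell receptor, which drives proliferation and is then silenced as the cells become small and resting. OBF-1, the product of Pou2af1, is a coactivator that is brought to DNA by Oct-1 or Oct-2 on the octamer ATGCAAAT, the element known from immunoglobulin promoters. Aiolos, encoded by Ikzf3, belongs with Ikaros to a family of DNA-binding zinc finger factors of lymphocytes.

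Pou2af1 (chromosome 9) had intensities of 170.1 and 272.9 on the double-mutant arrays, against 2433.7 and 2841.9 on the Aiolos single-mutant arrays. It was 12.2-fold lower in double-mutant cells (log2 fold change -3.61, standard error 0.17, adjusted p = 4.45e-07 from limma), and OBF-1 single-mutant arrays were also low, at 241.1 and 236.0, against 2760.8 and 2678.4 in wild type. Each array therefore matched its label for OBF-1, although whether the probes lie inside the deleted part of the gene was not tested. Aiolos mRNA could not be followed in the same way, since none of the probe sets used here stood for Ikzf3. The Oct factor Pou2f2 (Oct-2), at 371.8 and 334.4 in double-mutant and 312.8 and 308.3 in Aiolos single-mutant cells, did not pass the test (95% interval of the log2 difference -0.05 to 0.41), nor did Ikaros (Ikzf1), at 255.5 and 232.0 in double-mutant and 196.4 and 188.8 in Aiolos single-mutant cells (interval 0.06 to 0.62).

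The cells carried the markers of their sort. Ptprc, which encodes B220, was at 1717.8 and 2095.7 in double-mutant and 1969.4 and 2175.6 in Aiolos single-mutant cells, and Il2ra, which encodes CD25, at 702.6 and 625.9 in double-mutant and 472.3 and 484.6 in Aiolos single-mutant cells. The receptor subunit Cd79a was at 7548.1 and 7216.4 in double-mutant and 7079.5 and 7126.2 in Aiolos single-mutant cells, and Rag1, a subunit of the recombinase, at 2568.3 and 2780.7 in double-mutant and 2588.0 and 2898.9 in Aiolos single-mutant cells. Pax5, however, reached only 70.7 and 66.3 in double-mutant and 58.4 and 65.8 in Aiolos single-mutant cells. Granulocyte genes were also bright on all arrays. S100a9, a calcium-binding protein of neutrophils, had 6237.2 and 6397.5 in double-mutant and 6164.9 and 6189.1 in Aiolos single-mutant cells, and the summed intensity of 13 granulocyte and monocyte markers was 29822 and 30402 in double-mutant against 27470 and 28309 in Aiolos single-mutant cells. None of these 13 markers passed the limma test in this comparison (2 of them, Ltf and Lyz2, had an unadjusted p under 0.05), and their part in the results below was not tested.

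At an adjusted p under 0.05 in limma, 500 of the 9603 probe sets differed between double-mutant and Aiolos single-mutant cells, which is 5.21%. Of these, 315 (3.28%) were higher and 185 (1.93%) lower in double-mutant cells, and of all 22626 probe sets 2.95% were called, 1.75% higher and 1.19% lower. In bulk RNA, fewer cells that make an mRNA and less of it in each cell cannot be told apart. In the 6135 genes, each read from 1 probe set, 5.75% were called, 214 (3.49%) higher and 139 (2.27%) lower. Over all 12383 genes, beside which the gene lists below were read, 3.42% were called, 238 (1.92%) higher and 185 (1.49%) lower, with a median log2 fold change of -0.03. Of the 500 probe sets, 129 reached the intensity limit of 100 in only 1 of both genotypes. The falls were larger than the rises. The median change was 0.71 on the log2 scale for the probe sets called lower and 0.59 for those called higher, and 17 probe sets fell at least 4-fold whereas 1 rose at least 4-fold. These 17 include Pou2af1, the deleted gene, and more than 1 probe set each of Zfpm1 and Igha. The count of calls, 500 on all arrays, was 281 without double-mutant array 2, 329 without Aiolos single-mutant array 1 and 235 without Aiolos single-mutant array 2. The 2 Aiolos single-mutant arrays were washed on modules 1 and 2 of fluidics station 1 and scanned before the 2 double-mutant arrays from modules 3 and 4, so module and scan order cannot be told apart from the genotype.

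**Figure D1:**
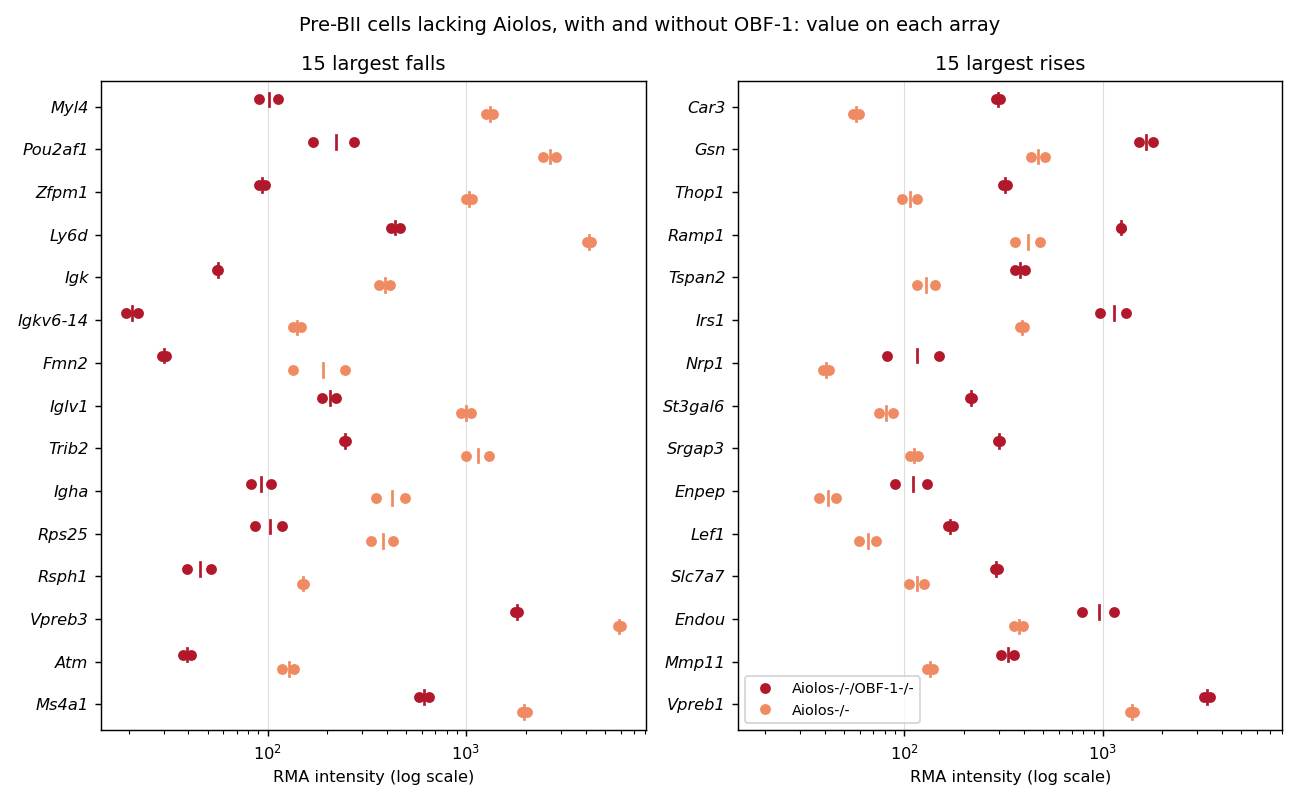
RMA intensity (log scale) of the 15 genes with the largest falls (left) and the 15 with the largest rises (right) on the 2 Aiolos-/-/OBF-1-/- arrays (upper, dark points) and the 2 Aiolos-/- arrays (lower, light points), with a vertical tick at each mean. In none of the 30 genes do the points of the 2 genotypes overlap, which was a condition for choosing them.

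Myl4, a myosin light chain of embryonic and atrial muscle, showed the largest fall on the log2 scale. It had 113.5 and 90.4 in double-mutant cells, against 1265.3 and 1367.1 in Aiolos single-mutant cells (log2 fold change -3.70, standard error 0.11, adjusted p = 9.12e-09 from limma). Zfpm1, which encodes the GATA cofactor FOG-1, had 97.0 and 90.7 in double-mutant and 1066.5 and 1003.7 in Aiolos single-mutant cells (log2 fold change -3.46, standard error 0.17, adjusted p = 4.54e-07 from limma). A second Myl4 probe set changed by -0.33 and did not pass the test, and a second Zfpm1 probe set fell by 2.60. Both double-mutant arrays were near the intensity limit of 100 for the brighter probe sets while both Aiolos single-mutant arrays were above 1000. Ly6d, a membrane-anchored protein that marks lymphoid progenitors committed to the B lineage, kept a clear signal, 463.9 and 416.8 in double-mutant against 4079.8 and 4277.1 in Aiolos single-mutant cells (log2 fold change -3.25, standard error 0.10, adjusted p = 9.12e-09 from limma). Its level in double-mutant cells was 9.5-fold lower, with the pairs of arrays far apart.

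Immunoglobulin probe sets formed the next group of falls. The probe set named Igk, the κ light chain locus, had 55.5 and 56.5 in double-mutant and 364.7 and 415.7 in Aiolos single-mutant cells (log2 fold change -2.80, standard error 0.10, adjusted p = 2.5e-08 from limma), and the κ variable segment Igkv6-14 had 22.2 and 19.4 in double-mutant and 134.3 and 147.3 in Aiolos single-mutant cells (log2 fold change -2.76, adjusted p = 5.34e-07). Iglv1, a λ variable segment, was at 188.2 and 222.6 in double-mutant against 946.8 and 1063.7 in Aiolos single-mutant cells (log2 fold change -2.29, adjusted p = 5.76e-05). The probe set for Igha, the constant region of IgA, had 104.3 and 82.2 in double-mutant and 491.6 and 351.1 in Aiolos single-mutant cells (log2 fold change -2.17, adjusted p = 0.000247). Both arrays of each genotype were on the same side in all 4 genes, which was a condition for choosing them. The Iglv1 and Igha probe sets are of a design that can bind several related transcripts, and another Igk probe set, at means of 136 in double-mutant and 172 in Aiolos single-mutant cells, did not pass the test. Ighm, the μ heavy chain, was bright throughout at 8265.0 and 9292.1 in double-mutant and 9484.7 and 9806.2 in Aiolos single-mutant cells and did not pass the test either (interval of the log2 difference -0.37 to 0.09). On the list of immunoglobulin chains, 4 were measured and 1 of them, Iglv1, was called.

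The remaining large falls were of genes with different roles. The formin Fmn2, which nucleates actin filaments, had 29.3 and 30.9 in double-mutant against 134.9 and 244.7 in Aiolos single-mutant cells (log2 fold change -2.60, adjusted p = 5.48e-05). Trib2, a Tribbles pseudokinase, had 241.6 and 247.4 in double-mutant and 1303.6 and 997.1 in Aiolos single-mutant cells (log2 fold change -2.22, adjusted p = 0.00268), and its call was lost with 50 added before the log2 (adjusted p = 0.0536) and with trend and robust moderation (adjusted p = 0.149). Rsph1, a radial spoke protein of cilia, had 52.0 and 39.2 in double-mutant and 152.0 and 148.5 in Aiolos single-mutant cells (log2 fold change -1.73, adjusted p = 8.94e-06). No array of either genotype crossed over to the other, which was a condition for choosing these genes. The Trib2 probe set, like that of St3gal6 below, can bind related transcripts. A further pair of falls, of the ribosomal protein gene Rps25 and of Atm, the kinase that responds to DNA double-strand breaks, were of genes on chromosome 9, where Pou2af1 lies. Of its 80 nearest described genes there, 4 were called lower and 1 higher, a count made after the values were seen. Over all 6135 described genes, 139 (2.27%) were called lower and 214 (3.49%) higher. Rps25 had 86.3 and 118.5 in double-mutant against 333.5 and 430.8 in Aiolos single-mutant cells (log2 fold change -1.91, adjusted p = 8.4e-05), and Atm had 41.0 and 37.5 in double-mutant and 118.8 and 136.7 in Aiolos single-mutant cells (log2 fold change -1.70, adjusted p = 6.04e-06).

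Ms4a1, which encodes the B cell surface protein CD20, had 580.2 and 650.4 in double-mutant cells, against 1911.2 and 2023.0 in Aiolos single-mutant cells (log2 fold change -1.68, standard error 0.10, adjusted p = 1.29e-06 from limma). It stands on a list of 8 genes reported to depend on OBF-1. Of these, 7 were measured, and Myl4 and Ms4a1 were called lower while none was called higher. The other measured genes, S100a10, Kcnn4, Cdc37, Ms4a6d and Spib, did not pass the test, with log2 fold changes of 0.08, 0.25, 0.16, -0.01 and -0.23. Ms4a6d was at most 21.1 on any of the 4 arrays, below the limit of 100.

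The surrogate light chain genes Vpreb1 and Igll1 rose, whereas the VpreB-like gene Vpreb3 fell. Vpreb1 had 3241.8 and 3477.6 in double-mutant cells, against 1434.8 and 1375.2 in Aiolos single-mutant cells (log2 fold change 1.26, standard error 0.10, adjusted p = 1.59e-05 from limma). Igll1, encoding λ5, had 5904.3 and 5408.4 in double-mutant and 3158.4 and 2819.9 in Aiolos single-mutant cells (log2 fold change 0.92, standard error 0.11, adjusted p = 0.00036 from limma), and a probe set that Vpreb1 and Vpreb2 share had 1666.6 and 1772.9 in double-mutant and 623.2 and 553.0 in Aiolos single-mutant cells (log2 fold change 1.55, adjusted p = 3.45e-06). On all 3 probe sets both double-mutant arrays were above both Aiolos single-mutant arrays. The Igll1 probe set is of a type that can also bind related transcripts. Vpreb3, a VpreB-like protein that associates with immunoglobulin chains in pre-B cells, was 3.29-fold lower, with 1759.3 and 1835.9 in double-mutant and 6035.4 and 5797.8 in Aiolos single-mutant cells (log2 fold change -1.72, standard error 0.09, adjusted p = 7.04e-07 from limma). Top3b, the neighbour of Vpreb1, had 666.4 and 613.7 in double-mutant and 581.8 and 553.2 in Aiolos single-mutant cells and did not pass the test (interval of the log2 difference -0.04 to 0.39).

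**Figure D2:**
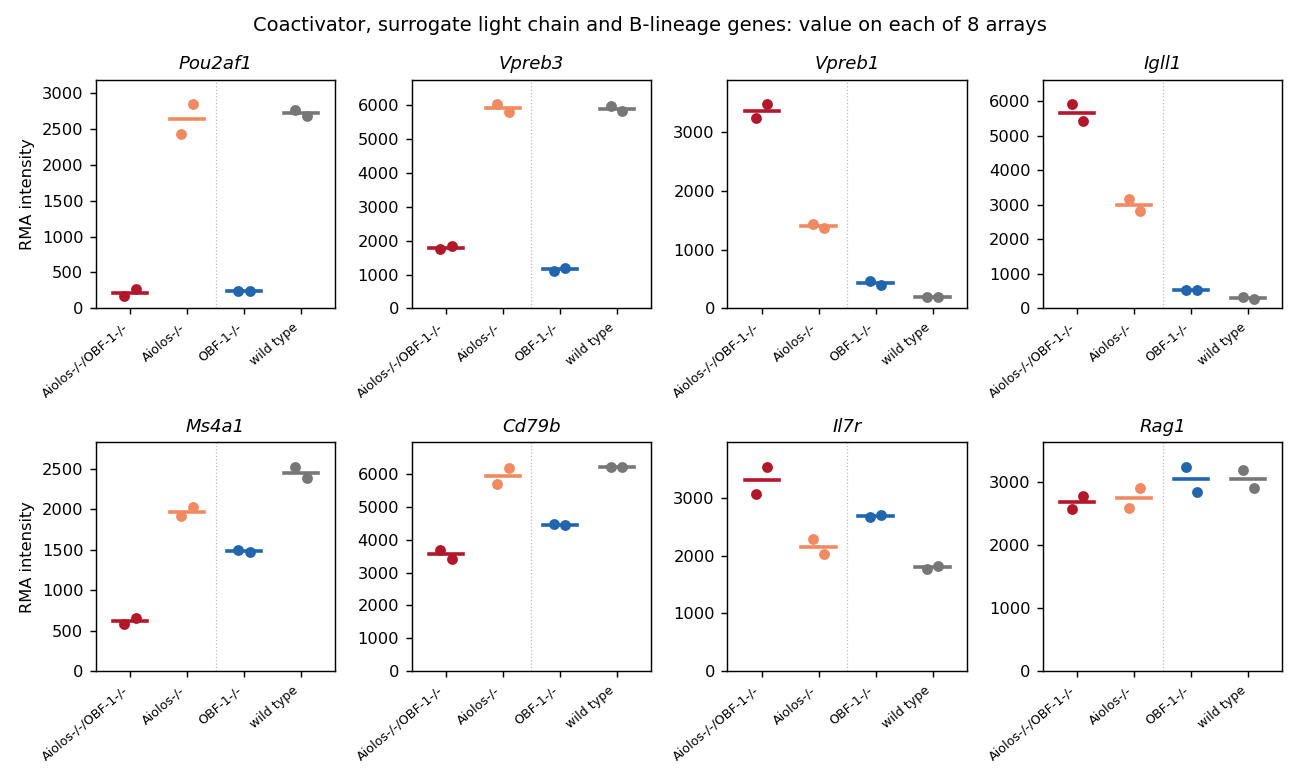
RMA intensity on each of the 8 arrays (points, with the mean of each genotype as a line) for the OBF-1 gene Pou2af1, surrogate light chain genes and other B-lineage genes, each axis starting at 0; the dotted line separates cells without Aiolos (left) from cells with Aiolos (right). Vpreb1 and Igll1 are highest on both Aiolos-/-/OBF-1-/- arrays, Vpreb3 and Pou2af1 are low in both genotypes without OBF-1, and the Rag1 values of all genotypes lie close together.

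Of the 15 largest falls and the 15 largest rises, 21 genes had a promoter (250 bases before to 50 after the start) in the RefSeq table for GRCm38.p6, 8 that fell and 13 that rose, and among these 21 Vpreb3 was the only one whose promoter held the octamer. Ly6d, Igk, Igkv6-14, Iglv1, Igha, Rsph1, Ms4a1, Car3 and Endou were not matched to a promoter of the table and were not searched. The search was for ATGCAAAT and its reverse complement ATTTGCAT. The promoter of Vpreb3 is shown because it is the only one of the 21 that carries the element on which OBF-1 is known to act. It lies at chr10:75948050-75948349 on the plus strand, with the octamer, whose first base is 45 bases before the start, in capitals.
Vpreb3: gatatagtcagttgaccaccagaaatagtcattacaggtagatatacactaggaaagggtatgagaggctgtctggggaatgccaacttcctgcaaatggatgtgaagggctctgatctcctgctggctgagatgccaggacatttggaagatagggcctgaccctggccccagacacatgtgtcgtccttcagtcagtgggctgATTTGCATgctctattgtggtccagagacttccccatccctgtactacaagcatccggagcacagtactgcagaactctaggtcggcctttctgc

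Over all genes called lower in double-mutant cells, 107 of 139 had a promoter in the table and 8 of them (7.48%) held an octamer. The share was 1.80% (3 of 167) for genes called higher, 1.48% (75 of 5057) for all described genes and 1.97% (532 of 27025) for all promoters of the table. A match of these letters is a description of the sequence and not a site that was shown to be bound. The windows of 40 bases around the octamer nearest the start, chosen after the values were seen, are given for the other genes called lower, with the octamer in capitals and each written along the strand of its gene. Zfp428 and Pim2 held 2 octamers and Cables2 held 3.
Zfp428, plus strand, chr7:24507000-24507039: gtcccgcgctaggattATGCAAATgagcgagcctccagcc
Itpr3, plus strand, chr17:27057261-27057300: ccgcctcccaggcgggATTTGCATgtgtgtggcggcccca
Il4ra, plus strand, chr7:125552116-125552155: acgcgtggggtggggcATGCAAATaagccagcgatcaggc
Gadd45g, plus strand, chr13:51846556-51846595: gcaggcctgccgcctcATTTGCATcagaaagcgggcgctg
Cables2, minus strand, chr2:180273501-180273540: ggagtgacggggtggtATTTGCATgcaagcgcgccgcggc
Pim2, plus strand, chrX:7878167-7878206: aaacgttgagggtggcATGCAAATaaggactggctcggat
Egln2, minus strand, chr7:27166893-27166932: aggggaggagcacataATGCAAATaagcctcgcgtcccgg

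The zinc finger gene Zfp428 had 65.9 and 54.3 in double-mutant and 156.4 and 186.7 in Aiolos single-mutant cells (log2 fold change -1.52, adjusted p = 2.4e-05). Itpr3, an inositol trisphosphate receptor that releases calcium from the endoplasmic reticulum, had 276.0 and 270.5 in double-mutant and 574.4 and 650.9 in Aiolos single-mutant cells (log2 fold change -1.16, adjusted p = 0.00031). For both genes the arrays of the genotypes did not overlap, and both calls held without any single array. Il4ra, a chain of the interleukin 4 receptor, had 76.8 and 90.4 in double-mutant and 155.9 and 151.6 in Aiolos single-mutant cells (log2 fold change -0.88, adjusted p = 0.00677), a call lost without double-mutant array 1 (adjusted p = 0.0683). Gadd45g, a stress-response gene, had 99.8 and 76.4 in double-mutant and 143.3 and 167.6 in Aiolos single-mutant cells (log2 fold change -0.83, adjusted p = 0.0131), a call lost without double-mutant array 2 or Aiolos single-mutant array 2 (adjusted p 0.136 to 0.138). Cables2, the survival kinase Pim2 and the oxygen-dependent prolyl hydroxylase Egln2 had log2 fold changes of -0.60, -0.46 and -0.44, and each lost its call without any of the 4 compared arrays (adjusted p 0.0781 to 0.21 for Cables2, adjusted p 0.113 to 0.223 for Pim2 and adjusted p 0.062 to 0.175 for Egln2). The genes called higher with an octamer were Prkcb, Chchd10 and Kcnab2, with log2 fold changes of 0.37, 0.44 and 0.56. Their calls were lost as well, that of Chchd10 without double-mutant array 1, Aiolos single-mutant array 1 or Aiolos single-mutant array 2 (adjusted p 0.107 to 0.148), that of Kcnab2 without double-mutant array 1, double-mutant array 2 or Aiolos single-mutant array 2 (adjusted p 0.0609 to 0.136) and that of Prkcb without any 1 of the 8 arrays (adjusted p 0.0623 to 0.229). The promoters of Igll1, Vpreb1, Myl4, Zfpm1 and Pou2af1 in the table held no octamer, which says only that these letters are not in this window. The study reports putative octamer sites further upstream of Igll1 than this window. It detected OBF-1 at them by chromatin immunoprecipitation in a B lymphoma line.

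Car3, carbonic anhydrase III, showed the largest rise. It had 302.1 and 291.6 in double-mutant cells, against 55.3 and 59.2 in Aiolos single-mutant cells (log2 fold change 2.38, standard error 0.11, adjusted p = 4.45e-07 from limma). A second Car3 probe set, with means of 59.7 in double-mutant and 38.3 in Aiolos single-mutant cells, rose by only 0.62 (adjusted p = 0.0367 from limma). Gsn, gelsolin, which severs and caps actin filaments, was high in double-mutant cells at 1791.6 and 1531.5, against 510.2 and 434.5 in Aiolos single-mutant cells (log2 fold change 1.81, standard error 0.11, adjusted p = 2.14e-06 from limma). It was 3.52-fold higher in double-mutant cells, and the 3 other Gsn probe sets with means above 100 rose by 1.59 to 1.89 on the log2 scale. Its relative Scin, scinderin, rose as well, with means of 119 in double-mutant and 52.1 in Aiolos single-mutant cells (log2 fold change 1.19, adjusted p = 0.000375). Of 19 actin filament regulators, 2 were called higher (Gsn and Scin) and 2 lower (Fmn2 and Marcksl1). The call of Marcksl1, with a log2 fold change of -0.45, was lost without double-mutant array 2, Aiolos single-mutant array 1 or Aiolos single-mutant array 2 (adjusted p 0.054 to 0.252). The median log2 fold change of the list was -0.02.

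Several membrane proteins rose. Ramp1, which escorts the calcitonin receptor-like receptor to the cell surface to form the receptor of the neuropeptide CGRP, had 1243.5 and 1242.8 in double-mutant against 484.2 and 359.7 in Aiolos single-mutant cells (log2 fold change 1.57, standard error 0.14, adjusted p = 4.81e-05 from limma). Its partner Calcrl was faint, 26.9 and 29.2 in double-mutant and 20.1 and 19.7 in Aiolos single-mutant cells (log2 fold change 0.50, adjusted p = 0.015), a call lost without double-mutant array 2, Aiolos single-mutant array 1 or Aiolos single-mutant array 2 (adjusted p 0.0773 to 0.122). The call was also lost over the mean of its probe sets (adjusted p = 0.2), and a second Calcrl probe set changed by -0.03 and was not called. Lgr5, the R-spondin receptor known as a stem cell marker of the gut, had 905.6 and 841.3 in double-mutant and 398.5 and 379.5 in Aiolos single-mutant cells (log2 fold change 1.17, adjusted p = 0.0003). Ramp1, Calcrl and Lgr5 were the 3 called higher of 7 measured receptors and partner proteins, a list with a median log2 fold change of -0.01. Only 2 of the 7 reached a mean of 100. The study had already named Ramp1 and Lgr5 (as Gpr49) from these same arrays, so their calls are no result about the list. The tetraspanin Tspan2 had 405.0 and 360.6 in double-mutant and 142.6 and 115.8 in Aiolos single-mutant cells (log2 fold change 1.57, adjusted p = 3.2e-05). Of 17 tetraspanins 3 were called higher and 0 lower, the others being Tspan32 (log2 fold change 1.07, adjusted p = 0.00128) and Cd9 (log2 fold change 0.45, adjusted p = 0.0244), whose call was lost without double-mutant array 1, double-mutant array 2 or Aiolos single-mutant array 2 (adjusted p 0.0972 to 0.231).

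Irs1, the adaptor of the insulin and IGF receptors, had 966.6 and 1307.4 in double-mutant cells, against 384.6 and 402.7 in Aiolos single-mutant cells (log2 fold change 1.51, standard error 0.13, adjusted p = 3.1e-05 from limma). Enpep, the aminopeptidase known as the BP-1 antigen of mouse pre-B cells, had 90.1 and 130.8 in double-mutant and 45.2 and 37.3 in Aiolos single-mutant cells (log2 fold change 1.40, standard error 0.17, adjusted p = 0.000426 from limma). Double-mutant array 2 was the higher of its pair in both genes. That the pairs did not meet was a condition for choosing these genes. Nrp1, a co-receptor of semaphorins and VEGF, spread in the same way, with 82.1 and 149.5 in double-mutant and 38.8 and 41.8 in Aiolos single-mutant cells (log2 fold change 1.46, adjusted p = 0.00693), and its call was lost without double-mutant array 2 (adjusted p = 0.0578), with 50 added before the log2 (adjusted p = 0.0956) and with trend and robust moderation (adjusted p = 0.0707). The other large rises were Thop1 (an oligopeptidase), St3gal6 (a sialyltransferase), Srgap3 (a GTPase-activating protein of the Slit and Robo pathway), Slc7a7 (an amino acid transporter subunit), Endou (an endoribonuclease) and Mmp11 (stromelysin-3), with log2 fold changes of 1.60, 1.43, 1.42, 1.34, 1.33 and 1.30. Second probe sets of Thop1 and Srgap3 changed by -0.28 and 0.13 and did not pass the test. Endou was the brightest of these 6, with 1136.4 and 789.9 in double-mutant and 397.9 and 356.4 in Aiolos single-mutant cells.

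**Figure D3:**
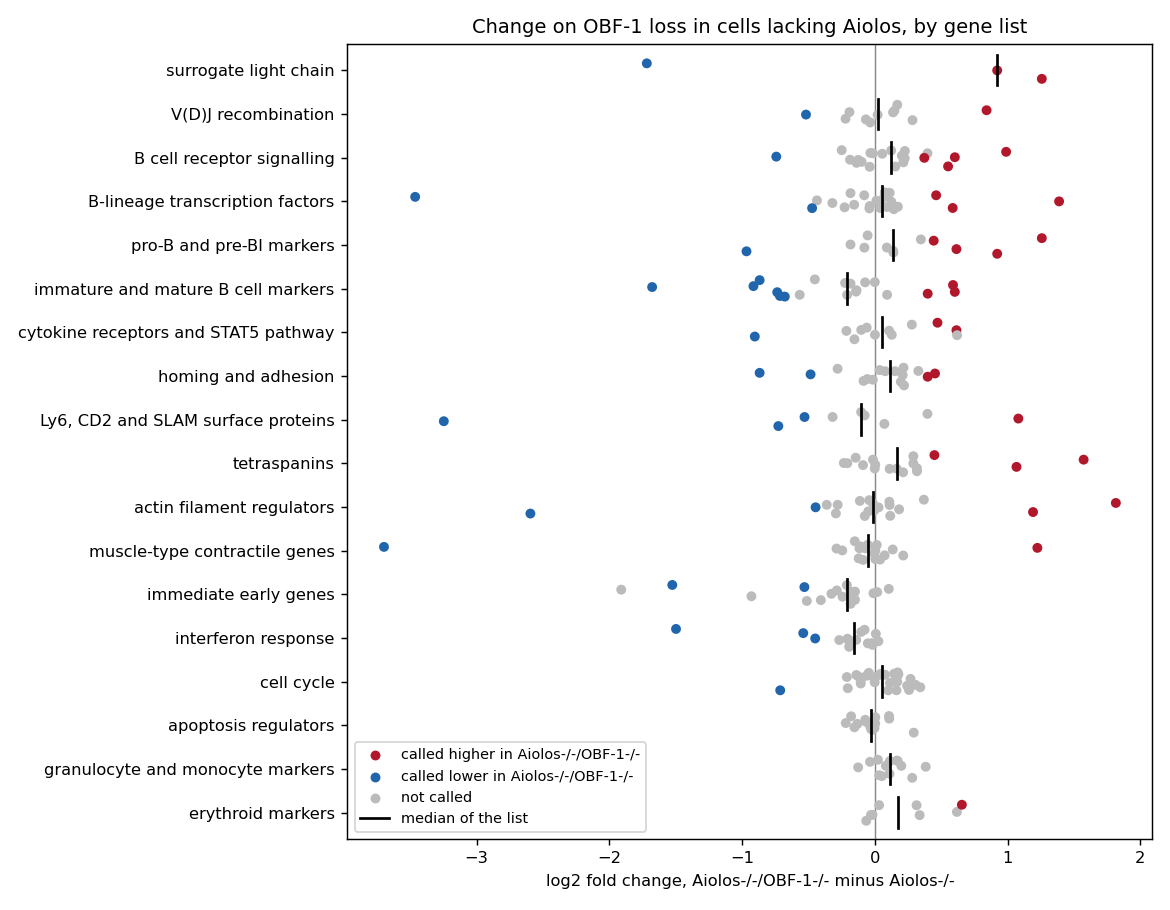
Log2 fold change (Aiolos-/-/OBF-1-/- minus Aiolos-/-) of each measured gene of 18 gene lists, coloured by whether it was called higher, called lower or not called, with the median of each list as a black line. The list medians lie close to 0 except for the surrogate light chain, and the list of immature and mature B cell markers holds 6 genes called lower and 3 called higher.

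Genes that mark the maturation of B cells were divided. Of 19 measured immature and mature B cell markers, 6 were called lower and 3 higher, with a median log2 fold change of -0.21. Besides Ms4a1, the falls were of Tnfrsf13c, the receptor of the survival factor BAFF, of the class II antigen presentation genes Cd74 and H2-Ab1, of the follicular homing receptor Cxcr5, and of Cd83. Tnfrsf13c had 697.5 and 735.2 in double-mutant against 1288.0 and 1415.9 in Aiolos single-mutant cells (log2 fold change -0.92, adjusted p = 0.00014). Both double-mutant arrays of Cd74 were also below both Aiolos single-mutant arrays, at 1228.6 and 1411.8 against 2007.4 and 2215.4 (log2 fold change -0.68, adjusted p = 0.00248). Cxcr5 and Cd83 were below 100 on all 4 arrays and lost their calls without double-mutant array 1 or Aiolos single-mutant array 2 (adjusted p 0.0945 to 0.127 and adjusted p 0.0805 to 0.109), and the call of H2-Ab1 was lost without double-mutant array 1, Aiolos single-mutant array 1 or Aiolos single-mutant array 2 (adjusted p 0.116 to 0.191). The rises were of Cd22, Ccr7 and Ltb. Cd22, an inhibitory co-receptor, had 1750.2 and 1693.3 in double-mutant and 1005.3 and 1279.9 in Aiolos single-mutant cells (log2 fold change 0.60, adjusted p = 0.0171), a call lost without double-mutant array 1, double-mutant array 2 or Aiolos single-mutant array 1 (adjusted p 0.0875 to 0.144). Those of Ccr7 (log2 fold change 0.40) and Ltb (log2 fold change 0.59) were lost without double-mutant array 1, double-mutant array 2, Aiolos single-mutant array 1, Aiolos single-mutant array 2, wild type array 1 or wild type array 2 (adjusted p 0.0529 to 0.192) for Ccr7 and without double-mutant array 2, Aiolos single-mutant array 1, Aiolos single-mutant array 2, wild type array 1 or wild type array 2 (adjusted p 0.063 to 0.296) for Ltb.

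Of 12 measured pro-B and pre-BI markers, 4 were called higher, Igll1, Vpreb1, Il7r and Spn, and 1 lower, Cd93. Il7r, the receptor of the pre-B cell growth factor interleukin 7, had 3071.5 and 3541.6 in double-mutant and 2286.9 and 2030.7 in Aiolos single-mutant cells (log2 fold change 0.61, adjusted p = 0.00578), and the call was lost without double-mutant array 2 or Aiolos single-mutant array 2 (adjusted p 0.0652 to 0.0821). Cd93, the early B cell antigen AA4.1, went the other way with 1170.2 and 1291.4 in double-mutant and 2380.4 and 2428.3 in Aiolos single-mutant cells (log2 fold change -0.97, adjusted p = 9.5e-05). The call of Spn, with a log2 fold change of 0.44, was lost without double-mutant array 1, Aiolos single-mutant array 1, Aiolos single-mutant array 2, OBF-1 single-mutant array 1, OBF-1 single-mutant array 2, wild type array 1 or wild type array 2 (adjusted p 0.0505 to 0.192). The cytokine receptor and STAT5 list had 2 of 12 called higher, Il7r and Il2ra, and 1 lower, the feedback inhibitor Socs1. Socs1 had 57.3 and 66.2 in double-mutant and 116.1 and 114.6 in Aiolos single-mutant cells (log2 fold change -0.91, adjusted p = 0.000733). The change of Il2ra, 0.47 on the log2 scale (adjusted p = 0.0338), lost its call without any of the 4 compared arrays (adjusted p 0.0643 to 0.167).

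In the B cell receptor pathway, 4 of 21 measured genes were called higher and 1 lower. Cd79b, the signal-transducing Igβ chain of the receptor, had 3678.8 and 3426.3 in double-mutant against 5706.0 and 6190.5 in Aiolos single-mutant cells (log2 fold change -0.74, standard error 0.09, adjusted p = 0.000595 from limma), whereas its partner Cd79a did not pass the test (interval of the log2 difference -0.15 to 0.26). Fyn, a Src family kinase, rose, with 414.9 and 371.3 in double-mutant and 215.7 and 181.5 in Aiolos single-mutant cells (log2 fold change 0.99, standard error 0.11, adjusted p = 0.000251 from limma). The inhibitory receptors Cd22 and Fcgr2b were higher as well, Fcgr2b with 1497.6 and 1432.5 in double-mutant and 1018.1 and 981.6 in Aiolos single-mutant cells (log2 fold change 0.55, adjusted p = 0.00569), a call lost without Aiolos single-mutant array 2 (adjusted p = 0.0658). Other Fcgr2b probe sets rose by 0.31 and 0.36 without passing the test, and by 0.58 with a call (adjusted p = 0.0495 from limma). The fourth rise was of Prkcb, protein kinase C β, whose log2 fold change of 0.37 had an adjusted p of 0.0463 and lost its call without any 1 of the 8 arrays (adjusted p 0.0623 to 0.229).

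Of 26 B-lineage transcription factors, 3 were called higher and 2 lower. Lef1, a Wnt-pathway factor of early B and T cells, had 166.4 and 175.3 in double-mutant against 71.8 and 59.4 in Aiolos single-mutant cells (log2 fold change 1.39, standard error 0.12, adjusted p = 3.78e-05 from limma). Irf4, which promotes light chain rearrangement, had 2444.7 and 2689.5 in double-mutant and 1780.2 and 1639.7 in Aiolos single-mutant cells (log2 fold change 0.59, adjusted p = 0.00793), a call lost without double-mutant array 2 or Aiolos single-mutant array 2 (adjusted p 0.0812 to 0.0965). A second Irf4 probe set changed by 0.33 and did not pass the test. The study states, without showing the data, that Irf4 levels in pre-BII cells did not differ between genotypes. Gfi1 was the remaining rise, and Id3 fell beside Zfpm1. Their log2 fold changes were 0.46 and -0.47, and both calls were lost without any of the 4 compared arrays (adjusted p 0.0561 to 0.255 for Gfi1 and adjusted p 0.0559 to 0.215 for Id3, over all arrays that ended the call). Of 6 measured Oct and Ikaros family genes, counting Pou2af1 itself, only Pou2af1 was called.

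Of 11 measured genes of V(D)J recombination, 1 was called higher and 1 lower. Rag1 had 2568.3 and 2780.7 in double-mutant and 2588.0 and 2898.9 in Aiolos single-mutant cells, with overlapping values (interval of the log2 difference -0.27 to 0.20). Rag2 was higher on both double-mutant arrays, 376.8 and 546.5 against 241.4 and 265.8 in Aiolos single-mutant cells (log2 fold change 0.84, adjusted p = 0.01), but the call was lost without double-mutant array 2 or Aiolos single-mutant array 1 (adjusted p 0.0716 to 0.0806). Polm, the DNA polymerase μ of end joining, was lower with 824.7 and 739.3 in double-mutant and 1154.9 and 1084.6 in Aiolos single-mutant cells (log2 fold change -0.52, adjusted p = 0.021), and this call too was lost without double-mutant array 2, Aiolos single-mutant array 1 or Aiolos single-mutant array 2 (adjusted p 0.0885 to 0.164). Xrcc6, the Ku70 end-binding protein, and Dntt, which adds untemplated nucleotides, did not pass the test, with log2 fold changes of 0.28 and 0.14.

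Among surface proteins, 3 of 9 measured Ly6, CD2 and SLAM genes were called lower, Ly6d, Cd2 and Slamf1, and 1 higher, Cd244a. Cd2, an adhesion receptor, had 192.3 and 193.5 in double-mutant and 320.7 and 318.3 in Aiolos single-mutant cells (log2 fold change -0.73, adjusted p = 0.000506). Slamf1 (log2 fold change -0.53) lost its call without any of the 4 compared arrays or either OBF-1 single-mutant array (adjusted p 0.0534 to 0.269). Cd244a lost its call without double-mutant array 2 or Aiolos single-mutant array 2 (adjusted p 0.224 to 0.229). The homing and adhesion list had 2 of 16 genes called higher, Ccr7 and Icam2, and 2 lower, Cxcr5 and the hyaluronan receptor Cd44, which had 348.3 and 323.5 in double-mutant and 451.4 and 488.9 in Aiolos single-mutant cells (log2 fold change -0.48, adjusted p = 0.0173). The call of Cd44 was lost without double-mutant array 2, Aiolos single-mutant array 1 or Aiolos single-mutant array 2 (adjusted p 0.0501 to 0.168), and that of Icam2 without any of the 4 compared arrays (adjusted p 0.0512 to 0.217).

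Of the immediate early genes, 2 of 19 were called lower and 0 higher. Egr1, a zinc finger factor induced by receptor signals, had 111.5 and 100.4 in double-mutant against 281.2 and 330.2 in Aiolos single-mutant cells (log2 fold change -1.53, standard error 0.11, adjusted p = 8.12e-06 from limma). Fos had a larger mean change but was uneven, with 243.0 and 70.8 in double-mutant and 318.3 and 765.0 in Aiolos single-mutant cells, and did not pass the test (adjusted p = 0.0822). Dusp2, a phosphatase of MAP kinases, had a log2 fold change of -0.53 (adjusted p = 0.0172), a call lost without double-mutant array 1, Aiolos single-mutant array 1 or Aiolos single-mutant array 2 (adjusted p 0.0827 to 0.126). The interferon response list had 3 of 16 genes called lower and 0 higher, Ifi27l2a, Oas1a and Usp18. Ifi27l2a had 459.6 and 488.6 in double-mutant and 1220.1 and 1469.7 in Aiolos single-mutant cells (log2 fold change -1.50, standard error 0.10, adjusted p = 7.52e-06 from limma). Oas1a (log2 fold change -0.54) lost its call without any of the 4 compared arrays (adjusted p 0.0609 to 0.147). Usp18 (log2 fold change -0.45) lost its call without any 1 of the 8 arrays (adjusted p 0.0509 to 0.283). The median log2 fold change of the interferon list was -0.16.

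Genes of proliferation and survival were read beside the 3.42% called over all genes. Of 29 cell cycle genes, 1 was called lower, Ccnd2, which encodes cyclin D2, and 0 higher. Ccnd2 had 154.5 and 202.6 in double-mutant and 266.4 and 315.9 in Aiolos single-mutant cells (log2 fold change -0.71, adjusted p = 0.0414), and the call was lost without double-mutant array 1, Aiolos single-mutant array 1, Aiolos single-mutant array 2, wild type array 1 or wild type array 2 (adjusted p 0.059 to 0.275). None of 15 apoptosis regulators was called by limma at an adjusted p under 0.05, and 2 of them, Birc2 and Bik, had an unadjusted p under 0.05 (log2 fold changes 0.29 and -0.22). The survival genes Mcl1 and Bcl2l1 had log2 differences with intervals of -0.45 to 0.09 and -0.21 to 0.21. Of 19 muscle-type contractile genes, Tnnt2 (cardiac troponin T) was called higher with 72.4 and 67.2 in double-mutant and 31.6 and 28.3 in Aiolos single-mutant cells (log2 fold change 1.22, adjusted p = 3.74e-05) and Myl4 lower.

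Markers of other bone marrow cells were counted for the same comparison. The pre-BII markers had 2 called higher (Il2ra and Rag2) and 1 lower (Cd79b) of 10 measured. Of 8 erythroid markers 1 was called higher, Car2, at 939.7 and 822.7 in double-mutant and 502.8 and 620.2 in Aiolos single-mutant cells (adjusted p = 0.0377), a call lost without any of the 4 compared arrays (adjusted p 0.0542 to 0.246), and their summed intensity was 1920 and 1603 in double-mutant against 1150 and 1459 in Aiolos single-mutant cells. Of 5 plasma cell markers 1 was called higher, Sdc1 (CD138), with 845.3 and 749.4 in double-mutant and 457.1 and 400.9 in Aiolos single-mutant cells (log2 fold change 0.89, standard error 0.10, adjusted p = 0.000356 from limma), and their sums were 1757 and 1851 against 1452 and 1297. Sdc1 is also made by early B cells. Of 9 NK cell, dendritic cell and basophil markers, Ms4a2 was called lower at a level of 31.2 and 29.7 in double-mutant and 40.8 and 40.8 in Aiolos single-mutant cells, a call lost without any of these 4 arrays (adjusted p 0.0827 to 0.178). No marker was called among 10 of T cells, 5 of megakaryocytes and 8 of stroma and endothelium by limma, where 0, 2 and 1 had an unadjusted p under 0.05. The part of other cell types in the results was not tested.

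The OBF-1 single-mutant and wild type arrays share no array with the comparison above, so the same deletion could be read again in cells with Aiolos. There the same 9603 probe sets gave 340 calls (3.54%, against 2.09% of all probe sets), 150 (1.56%) higher and 190 (1.98%) lower in OBF-1 single-mutant cells. With an intensity limit on its own genotypes the count was 355, and 225 or 167 without OBF-1 single-mutant array 1 or 2 and 148 or 176 without wild type array 1 or 2. Granulocyte markers moved with this comparison, with 4 of 13 called higher (1.15% over all genes) and summed intensities of 29511 and 33588 in OBF-1 single-mutant against 24182 and 24332 in wild type cells, and so did 3 erythroid markers, whose part in it was not tested. Of the 185 probe sets called lower in cells without Aiolos, 176 (95.1%) changed in the same direction with Aiolos and 116 (62.7%) were called lower there too. Of the 315 called higher, 280 (88.9%) had the same direction and 92 (29.2%) were called. Over all 9603 probe sets 60.4% had the same direction. The fold changes of the comparisons rest on different arrays, but both came from the same limma fit. Each probe set therefore had the same standard error in both, and a small one favoured a call in both. The shares called in both are thus not an independent second reading, and how far this raised them was not tested. The median ratio of the change with Aiolos to that without was 0.82 for the probe sets called lower and 0.46 for those called higher. The probe sets were selected by their change in cells without Aiolos, and how far this lowers the ratio was not tested.

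**Figure D4:**
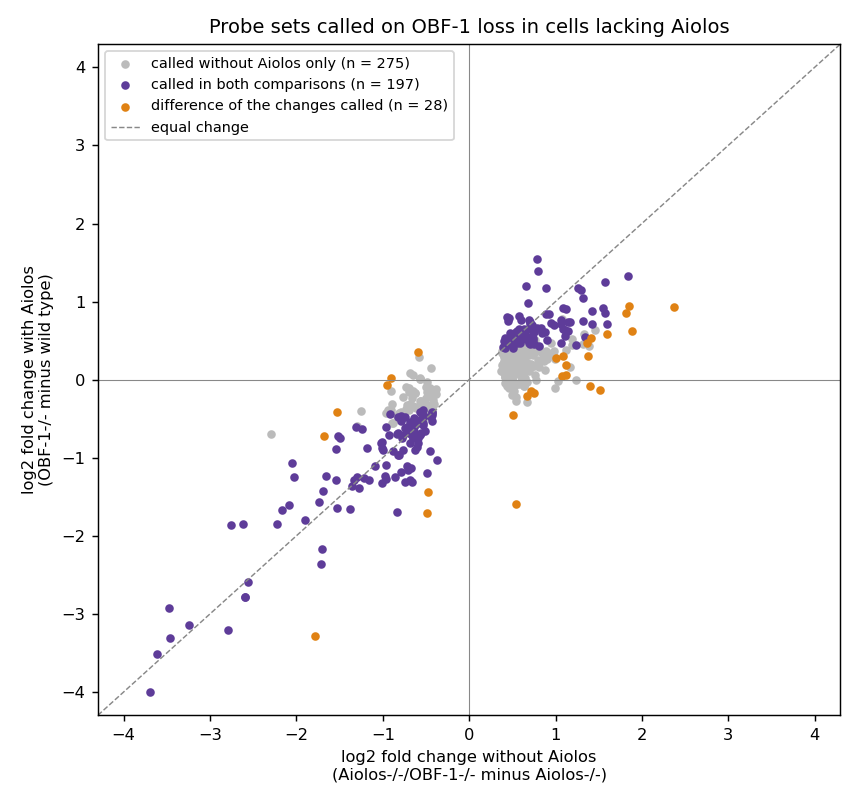
Log2 fold change on OBF-1 loss without Aiolos (x axis, Aiolos-/-/OBF-1-/- minus Aiolos-/-) and with Aiolos (y axis, OBF-1-/- minus wild type) for the 500 probe sets called without Aiolos; colours mark those whose difference was itself called (28) and, of the rest, those called in both comparisons (197) and without Aiolos only (275), and the dashed line marks equal changes. Large falls lie near the dashed line, and most rises lie below it.

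The largest falls were also found in cells with Aiolos. Myl4 had 114.8 and 112.6 in OBF-1 single-mutant and 1744.8 and 1886.4 in wild type cells (adjusted p = 4.03e-09 from limma), and Ly6d had 481.2 and 523.1 in OBF-1 single-mutant and 4359.3 and 4475.6 in wild type cells (log2 fold change -3.14). Zfpm1, with 69.4 and 112.9 in OBF-1 single-mutant and 892.0 and 863.5 in wild type cells, changed by -3.31. All OBF-1-deficient arrays, with or without Aiolos, were thus below all OBF-1-proficient arrays for these genes. The 2 OBF-1 single-mutant arrays were, like the double-mutant arrays, on modules 3 and 4 and were scanned after the 2 wild type arrays from modules 1 and 2 of fluidics station 2. Module and scan order thus ran the same way in both comparisons, and cannot be told apart from OBF-1 genotype in the changes they share. Vpreb3 fell to 1107.8 and 1196.9 in OBF-1 single-mutant cells, against 5997.1 and 5821.6 in wild type, a change of -2.36 on the log2 scale, and its difference from the one without Aiolos did not pass the test (95% interval 0.36 to 0.92, adjusted p = 0.103). The octamer was held there by 7 of 89 promoters (7.87%) of genes called lower (1.94% of the described genes) and by 1 of 84 (1.19%) of genes called higher (1.78% of them), and 6 of 63 (9.52%) of those called lower in both, a count added after the values were seen.

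The surrogate light chain genes also rose in cells with Aiolos, where their levels were far lower. Vpreb1 had 461.5 and 406.5 in OBF-1 single-mutant and 194.9 and 190.6 in wild type cells (log2 fold change 1.17), and Igll1 had 538.4 and 545.9 in OBF-1 single-mutant and 327.4 and 280.6 in wild type cells (log2 fold change 0.84). The difference of the log2 changes, without minus with Aiolos, did not pass the test and had 95% intervals of -0.21 to 0.39 for Vpreb1 and -0.24 to 0.41 for Igll1. The probe set that Vpreb1 and Vpreb2 share rose by 0.91 with Aiolos. Its difference was 0.64 (95% interval 0.33 to 0.94) and did not pass the test either (adjusted p = 0.149 from limma). Both double-mutant arrays had the highest signals of these genes, and both wild type arrays the lowest. The 4 arrays without Aiolos were on fluidics station 1 and the 4 arrays with Aiolos on station 2 and scanned earlier, so station and scan order cannot be told apart from Aiolos genotype in levels set across them.

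The test of the difference itself called 30 of the 9603 probe sets (0.312%), 24 (0.25%) with a more positive and 6 (0.0625%) with a more negative change without Aiolos, and 42 of all 22626 (0.186%). After quantile normalization 33 were called, 23 more positive and 10 more negative. The count was 7 without OBF-1 single-mutant array 1 and 15 without array 2, 8 or 9 without wild type array 1 or 2, 19 or 13 without double-mutant array 1 or 2, and 14 or 24 without Aiolos single-mutant array 1 or 2. Slc1a5, a transporter of glutamine and other neutral amino acids, showed the largest difference. It had 1327.5 and 1531.8 in double-mutant and 986.0 and 967.2 in Aiolos single-mutant cells, against 653.4 and 577.3 in OBF-1 single-mutant and 2083.3 and 1660.5 in wild type cells. On the log2 scale its change was 0.55 without and -1.60 with Aiolos (difference 2.14, standard error 0.17, adjusted p = 0.000517), and the rise without Aiolos lost its call without any of the 4 compared arrays (adjusted p 0.0532 to 0.238). Tmprss3, a membrane serine protease, did not pass the test without Aiolos, with 579.7 and 692.2 in double-mutant and 559.2 and 631.3 in Aiolos single-mutant cells, while it had 140.3 and 142.7 in OBF-1 single-mutant and 337.2 and 371.6 in wild type cells (difference 1.42, adjusted p = 0.00421).

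In other genes the rise was larger without Aiolos. Irs1 was at 381.3 and 387.9 in OBF-1 single-mutant and 442.7 and 398.9 in wild type cells, so that the double-mutant arrays stood above all other arrays (difference 1.64, standard error 0.18, adjusted p = 0.00421). Car3 rose in both settings but more without Aiolos, with 104.4 and 99.2 in OBF-1 single-mutant and 47.6 and 60.0 in wild type cells (difference 1.45, adjusted p = 0.00421). The second, fainter Car3 probe set changed by 0.18 with Aiolos and was not called there. Its difference of 0.44 did not pass the test either (adjusted p = 0.417). Gsn had 515.6 and 526.7 in OBF-1 single-mutant and 287.1 and 290.4 in wild type cells (difference 0.96, adjusted p = 0.0284), and Enpep 40.2 and 46.0 in OBF-1 single-mutant and 41.6 and 49.7 in wild type cells (difference 1.48, adjusted p = 0.0259). The difference of Gsn was not called on leaving out each of 6 of the 8 arrays (all but double-mutant array 2 and Aiolos single-mutant array 1, adjusted p 0.092 to 0.142) and that of Enpep on leaving out any array but double-mutant array 1 (adjusted p 0.0526 to 0.13), whereas those of Slc1a5, Tmprss3, Irs1 and Car3 kept their calls without any 1 array. With 50 added before the log2, the differences of Slc1a5 and Car3 kept their calls, and those of Tmprss3 (adjusted p = 0.0875), Irs1 (0.102), Gsn (0.125) and Enpep (0.257) did not. Without moderation of variances none of these 6 was called. Shisa2, Tnnt2, Rasa4 and Banp complete the 10 largest differences, and Shisa2 and Tnnt2 were below 100 on every array.

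**Figure D5:**
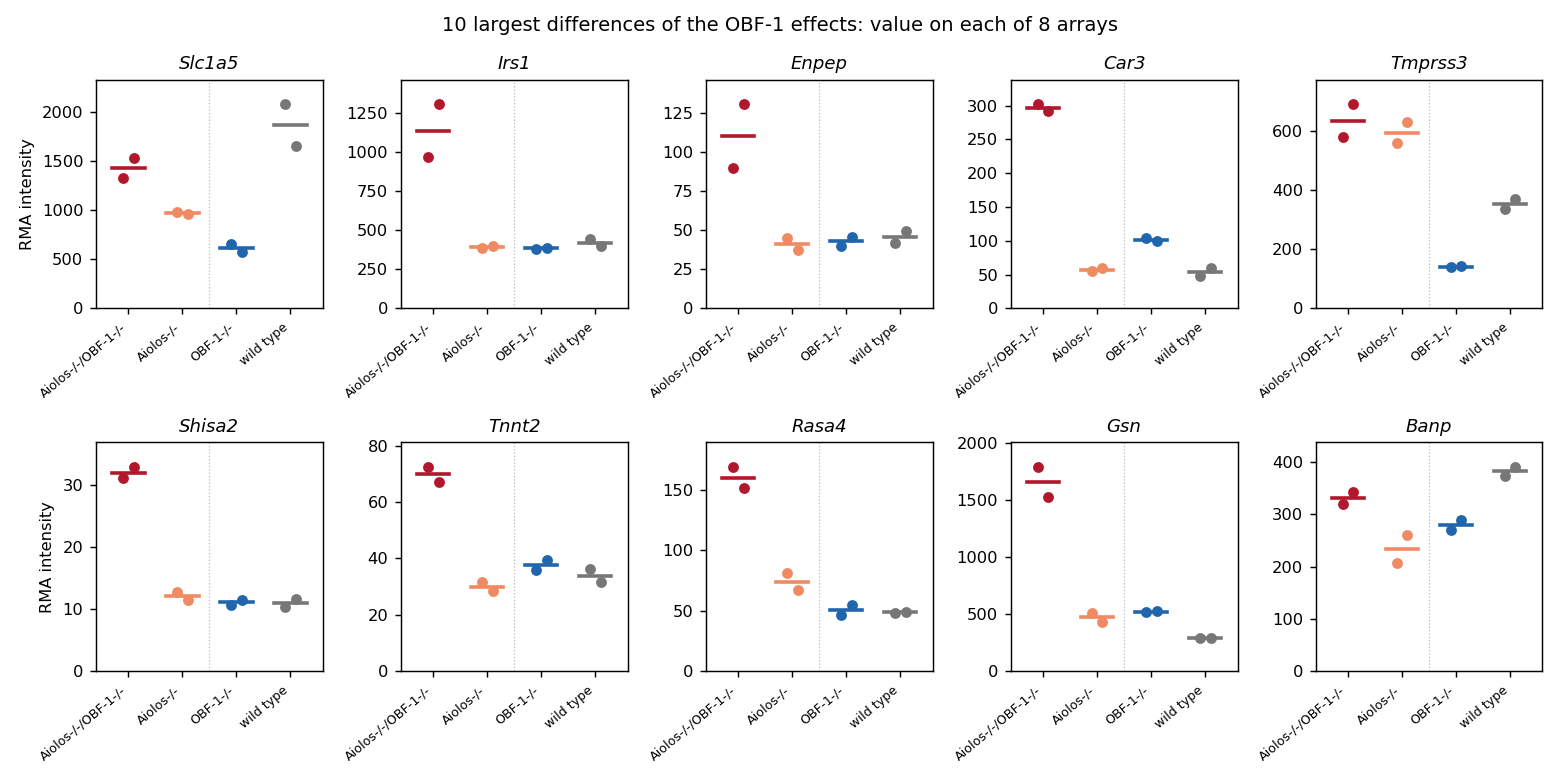
RMA intensity on each of the 8 arrays (points, with the mean of each genotype as a line) for the 10 genes with the largest called difference between the OBF-1 effects, each axis starting at 0; the dotted line separates cells without Aiolos (left) from cells with Aiolos (right). In Irs1, Enpep, Car3, Shisa2, Tnnt2, Rasa4 and Gsn both Aiolos-/-/OBF-1-/- arrays are above all others, while Slc1a5 and Tmprss3 are lowest on the OBF-1-/- arrays.

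Ms4a1 fell further without Aiolos. In cells with Aiolos it had 1493.7 and 1471.4 in OBF-1 single-mutant and 2520.9 and 2379.1 in wild type cells (log2 fold change -0.72), against a change of -1.68 without Aiolos (difference -0.95, adjusted p = 0.0177). Both double-mutant arrays were below all other arrays for this gene, but the difference was not called on leaving out any array but double-mutant array 2 (adjusted p 0.0526 to 0.0972). The Iglv1 probe set described above had 1613.6 and 873.8 in OBF-1 single-mutant and 2006.5 and 1860.7 in wild type cells and its difference of -1.59 did not pass the test (adjusted p = 0.0795), while a second Iglv1 probe set fell by 1.79 without and 3.29 with Aiolos on the log2 scale, so the probe sets disagree on where the fall was larger.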

How the data were processed

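RNA of sorted pre-BII cells had been hybridised to Affymetrix MOE430A GeneChips, 2 per genotype. The values used are the RMA intensity of each probe set as deposited by the authors, not in logarithms. RMA is named in the labels with no version, and the study names Affymetrix MAS 5 and GeneSpring, so the normalization within RMA is known only from the labels. Array medians were 66.8 to 69.4, and 40.4% to 41.1% of probe sets reached 100. Actin 3' to 5' ratios were 1.71 to 2.14. All arrays came from 1 chip lot. The number of arrays limits the precision. The p-values rest on the spread between arrays of a genotype, in which pool and array cannot be told apart. They also rest on variances moderated over all probe sets.

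The values were taken to log2 and fitted with limma 3.58.1 in R 4.3.3, with 1 mean per genotype over all 8 arrays and moderated variances (prior degrees of freedom 7.69, residual 4). The test was two-sided with Benjamini-Hochberg adjustment over 22626 probe sets, and calls were made at an adjusted p under 0.05. The 64 control probe sets were left out, and 20380 probe sets named 1 gene, 691 several and 1555 none. Tables and figures were made with Python 3.11.15, pandas 2.3.3 and matplotlib 3.10.9. For each of 12383 genes the probe set with the highest mean over all arrays among those naming only that gene was used. The fit was tested on simulated data.

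Genes were named by rule: the 15 largest rises and 15 largest falls among called genes whose arrays did not overlap, up to 4 members of each of 28 lists, genes the study names and the 10 largest called differences of the OBF-1 effects. List members were chosen as the called ones with the largest change, otherwise the brightest. The members and lists were chosen with earlier results of these data known. Alternatives were other filters, adjustment sets, normalizations and variance models, a minimum fold, a replicate block, leaving out each array and averaging the probe sets of each gene. Vpreb2 and Ikzf3 were not analysed here by a probe set of their own.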

Additional observations from a re-analysis of the deposited data

Results flagged for a closer look

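The change on OBF-1 loss without Aiolos minus that with Aiolos, on the log2 scale, passed the limma test for 11 of the genes named here, in 10 upward and in 1 downward. It was 2.14 for Slc1a5 (adjusted p = 0.000517), 1.64 for Irs1, 1.45 for Car3, 1.42 for Tmprss3 and 1.39 for Shisa2 (adjusted p = 0.00421 each), and these 5 calls were kept on leaving out each array in turn. With 50 added before the log2, Slc1a5 and Car3 kept their calls, and Irs1 (adjusted p = 0.102), Tmprss3 (0.0875) and Shisa2 (0.0785) lost theirs. The difference of a second, fainter Car3 probe set was 0.44 and was not called (adjusted p = 0.417). Shisa2, a membrane protein that was below 100 throughout, had 31.1 and 32.9 in double-mutant and 12.7 and 11.5 in Aiolos single-mutant cells, against 10.7 and 11.5 in OBF-1 single-mutant and 10.4 and 11.7 in wild type cells.

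The other differences were lost on leaving out single arrays, and with 50 added before the log2 as well (adjusted p = 0.257 for Enpep, 0.102 for Tnnt2, 0.125 for Rasa4 and Gsn, 0.163 for Banp and 0.0552 for Ms4a1). Without moderation of variances none of the 11 was called. That of Enpep was 1.48 (adjusted p = 0.0259) and, on leaving out arrays, was kept only without double-mutant array 1 (adjusted p 0.0526 to 0.13 without any other). That of the troponin gene Tnnt2, whose probe set can bind related transcripts, was 1.07 (adjusted p = 0.0177) and was lost without either double-mutant array, Aiolos single-mutant array 2, OBF-1 single-mutant array 1 or wild type array 1 (adjusted p 0.059 to 0.0968). A second Tnnt2 probe set, also below 100 throughout, rose by 1.88 without and 0.66 with Aiolos. Its difference of 1.22 was called (adjusted p = 0.00908). Rasa4, which encodes a Ras GTPase-activating protein, had 169.2 and 151.6 in double-mutant and 81.0 and 67.2 in Aiolos single-mutant cells, against 46.4 and 55.0 in OBF-1 single-mutant and 48.4 and 48.9 in wild type cells. Its difference was 1.06 (adjusted p = 0.0259), lost without either double-mutant array, Aiolos single-mutant array 2, OBF-1 single-mutant array 1 or either wild type array (adjusted p 0.0714 to 0.142). Gsn differed by 0.96 (adjusted p = 0.0284), lost on leaving out each of 6 arrays (adjusted p 0.092 to 0.142) and after quantile normalization (adjusted p = 0.0622). The differences of the other 3 Gsn probe sets called were 1.27 (adjusted p = 0.0065), 1.01 (adjusted p = 0.00878) and 0.91 (adjusted p = 0.021). Banp had 319.3 and 343.1 in double-mutant and 207.2 and 260.9 in Aiolos single-mutant cells, against 270.1 and 289.3 in OBF-1 single-mutant and 373.7 and 390.6 in wild type cells. Its difference was 0.96 (adjusted p = 0.0449), which, on leaving out arrays, was kept only without Aiolos single-mutant array 2 (adjusted p 0.084 to 0.19 without any other) and was lost after quantile normalization (adjusted p = 0.0677). Ms4a1 differed by -0.95 (adjusted p = 0.0177), a call that was kept, on leaving out arrays, only without double-mutant array 2 (adjusted p 0.0526 to 0.0972 without any other) and lost over the mean of its probe sets (adjusted p = 0.0734). Groups of 2 arrays are too small for a test of single outlying arrays.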

How the results depend on the processing

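Precision is set by 2 arrays per genotype, with module and scan order tied to genotype. Of 500 calls without Aiolos, 21 were made without moderation of variances and 98 were at least 2-fold, and 235 to 473 were made with each array left out. Other filters, normalizations, adjustment sets and fits gave 349 to 679, among them 445 with only the compared genotypes, which share 1 fluidics station. With Aiolos the count was 355, and 7 without moderation, 84 at least 2-fold and 148 to 355 with each array left out. The difference of the OBF-1 effects gave 30 calls, and 11 with 50 added before the log2, 13 at least 2-fold, 7 to 24 with each array left out, and 0 by limma without moderation, where 902 of 9805 probe sets with a mean of 100 or more in any genotype had an unadjusted p under 0.05. Adjustment over the described probe sets alone gave 42 of these calls and the robust trend 45. The replicate block gave 560 calls in place of 500 and ended none of the 72 named calls. Same-numbered arrays of double-mutant and Aiolos single-mutant cells deviated with r = 0.195, those of OBF-1 single-mutant and wild type cells with r = 0.152, of Aiolos single-mutant and wild type cells with r = 0.0117 and of double-mutant and OBF-1 single-mutant cells with r = -0.0697. With 2 pairs and no label of a shared origin, the numbers were not taken to pair the samples.

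Calls lost among the 72 named genes were 65 without moderation, 19 with 50 added and at most 7 under the other scalings, sample sets and variance models, and 17 to 23 on leaving out a compared array. Fold changes near 0 turned sign in genes that were not called. Ms4a6d was at 0.0584 after quantile normalization and 0.005 after median centring, and -0.0358 to 0.023 with an array left out. Bcl2l1 was at 0.008 after centring, 0.1559 over the mean of all its probe sets and -0.0986 to 0.0919 with an array left out. With an array left out, Rag1 was at -0.1174 to 0.0462, Tmprss3 at -0.0355 to 0.2202, S100a8 at -0.0369 to 0.0821, Cd4 at -0.0158 to 0.1991 and Gp9 at -0.2514 to 0.1551. The cause was not tested.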

Other observations

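Some genes were outside the rule for naming because a brighter probe set stood for them or because 10 genes were already named, and they were picked after their values were seen. The change of 3 of the 6 probe sets of Tsc22d1, a leucine zipper protein, was more positive without than with Aiolos, with called differences of 0.79, 0.93 and 1.03 on the log2 scale. Its other probe sets were not called for the difference. The brightest of the 3 called probe sets had 707.6 and 696.8 in double-mutant and 319.3 and 339.8 in Aiolos single-mutant cells, against 349.4 and 345.1 in OBF-1 single-mutant and 287.1 and 278.0 in wild type cells. Both double-mutant arrays stood above the other 6. Serpinf1, which encodes the pigment epithelium-derived factor, had 83.4 and 84.0 in double-mutant and 277.2 and 212.5 in Aiolos single-mutant cells, against 27.7 and 29.7 in OBF-1 single-mutant and 39.2 and 37.3 in wild type cells (difference -1.12, adjusted p = 0.0235). The protamine gene Prm1 was below 100 throughout on a probe set that can bind related transcripts, with 8.5 and 7.8 in double-mutant and 17.1 and 17.8 in Aiolos single-mutant cells, against 8.3 and 8.3 in OBF-1 single-mutant and 78.1 and 72.9 in wild type cells (difference 2.08, adjusted p = 6.4e-05). Only wild type cells were well above the other genotypes there. For Serpinf1 and Prm1 a brighter probe set stood for the gene, and its difference was not called.

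On chromosome 9, counted after the values were seen, 4 of the 80 described genes nearest Pou2af1 in gene order, Slc37a4, Trappc4, Rps25 and Atm, were called in the same direction with and without Aiolos. Over all 6135 described genes there were 147 such genes. Atm is 4 and Rps25 31 described genes away from Pou2af1.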
